A study of Rattus norvegicus with 13 samples.

Results

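Translation factors are the proteins that start, extend and end the synthesis of protein on the ribosome, and their messenger RNAs were followed here in rat cortical neurons and in the axons of those neurons. The members were the probe sets, each a group of short probes against 1 transcript, whose only gene symbol in the array's annotation begins with Eif1 to Eif6, Eef1, Eef2 or Etf1. The kinases of the Eif2ak family and the Eif4ebp genes were left out by this rule. It gave 86 probe sets for 54 genes, of 31042 probe sets that are not controls and 14217 genes with a probe set of their own. Cortical neurons from rat were cultured for 13 days in a microfluidic platform, a device whose narrow grooves let axons, but not cell bodies, reach a second chamber. Polyadenylated RNA was hybridised to 13 arrays. They comprised 7 of uninjured axons, 3 of regenerating axons, which were cut on day 11 and regrew for 2 days, and 3 of neurons taken from the compartment that holds the cell bodies. All groups shared the medium and the culture time, and the labels name no strain, age, genotype or drug. For each array 3 platforms were pooled, with 2 amplification rounds before hybridisation. The neuronal compartment holds cell bodies, dendrites and any glia of the culture, so it is not a sample of pure neurons.

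Initiation factors bring the small ribosomal subunit, the initiator transfer RNA and the messenger RNA together. The eIF4 factors bind the cap and unwind the start of the message, eIF2 carries the initiator transfer RNA, eIF3 holds the assembly on the small subunit, and eIF5B joins the large subunit. During elongation eEF1 delivers each charged transfer RNA and eEF2 moves the ribosome along by a codon. Axons contain ribosomes and make some proteins locally, and messenger RNAs for parts of the translation apparatus are among those found in axons.

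The deposited value of a probe set on an array is a linear ratio, so a value of 1 means the level of the reference. Uninjured arrays 1 to 3 had a row median of 1 throughout, and so had arrays 4 to 6. This scaling removes any difference in level between these sets, and the neuron and regenerating arrays are not scaled in this way. The uninjured ranges may therefore be too narrow, which makes it easier for groups not to overlap. Uninjured array 7 was 1 in every row and holds no measurement, which leaves 6 uninjured arrays with values. The denominator of the neuron and regenerating ratios is not given in the sources used here. The uninjured axon level was assumed, and each direction given against uninjured axons depends on this assumption. A ratio carries no signal, so a transcript that is absent cannot be told from one that is equal on both sides, and levels of different genes cannot be compared. Log2 differences are given with the standard error of the limma fit (n = 3 arrays in the group named first), which against uninjured axons includes an error assigned to the reference. In this fit a difference against uninjured axons is the group's own mean log2 ratio. The measured uninjured arrays enter only its error. The design gives 3 culture batches for the 7 uninjured arrays, without saying which array came from which, and nothing ties the neuron or regenerating arrays to separate cultures. The number of arrays limits the precision, and p-values measure only the spread between these arrays, part of which may be technical. In these pooled samples fewer cells of a type and less RNA per cell cannot be told apart.

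Most translation factor messages were far higher in neurons than in uninjured axons. Of the 86 probe sets, 56 passed as higher in neurons (65.1%, 43 genes; limma, Benjamini-Hochberg adjusted p under 0.05), whereas 28.4% of all probe sets did, and 34.3% of those with 1 symbol. Another 4 members passed as lower in neurons (4.65%), against 27.5% of all probe sets and 21.8% of those with 1 symbol. The median log2 difference of the members, neurons minus uninjured axons, was 1.72, and that of all probe sets was -0.07. On the 3 neuron arrays the median member ratio was 3.54, 2.57 and 4.11. On the uninjured arrays it lay between 0.982 and 1, a value near 1 that follows from their scaling. Every neuron array read above every uninjured array for 62 members (72.1%, against 33.1% of all probe sets), and these include all 56. The scaled uninjured ranges favour such a separation, for members and for all probe sets. Neuron array 2 was the lowest of the 3 for 68 of the 86 members.

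**Figure D1:**
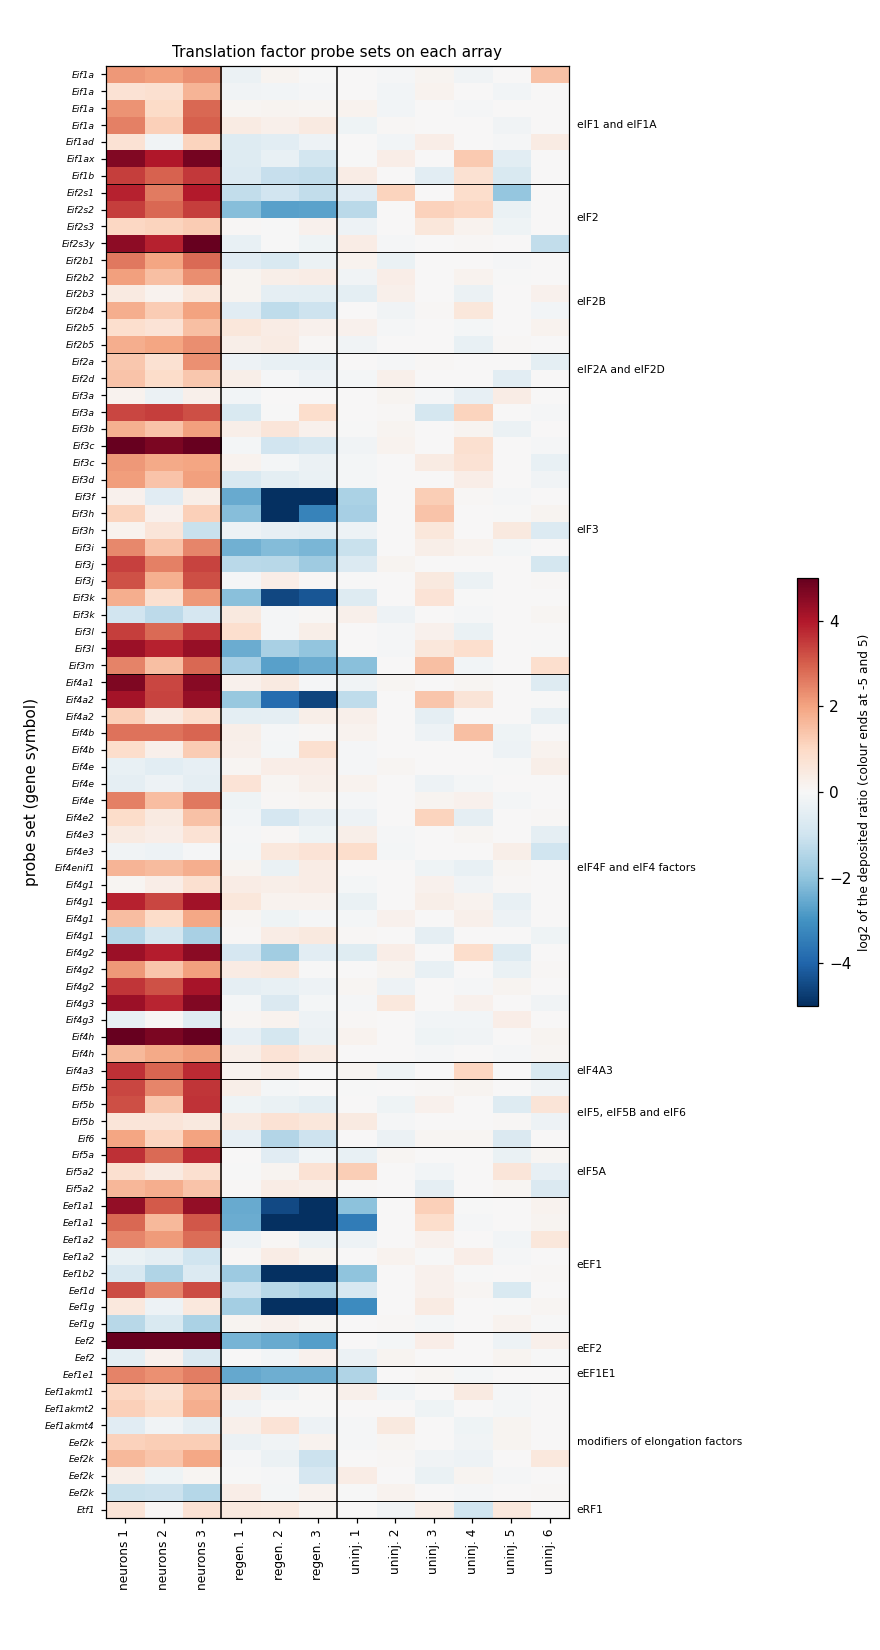
Log2 of the deposited ratio (colour) of each of the 86 translation factor probe sets (rows, named by gene and ordered by factor group) on the 3 neuron, 3 regenerating and 6 measured uninjured arrays (columns). The neuron columns are mostly red, up to a ratio of 52.7, and a small number of rows are deep blue on regenerating arrays 2 and 3 and paler blue on uninjured array 1.

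The cap-binding complex eIF4F and its helpers were high in neurons for most of their genes. Of 23 probe sets for eIF4 factors, 13 passed as higher in neurons, 1 as lower and 9 did not pass. *Eif4a1*, which encodes the helicase that unwinds the start of a message, read 25.2, 10.1 and 23.2 on the 3 neuron arrays and 0.638 to 1.08 on the uninjured arrays. Its log2 difference was 4.18 ± 0.47 (adjusted p = 9.51e-05). Its paralogue *Eif4a2* read 17.7, 10.4 and 20.6 with 1 probe set (log2 3.97 ± 0.79, adjusted p = 0.00247). The helper proteins eIF4H and eIF4B stimulate this helicase. The first *Eif4h* probe set read 31.3, 25.9 and 36.3 on the neuron arrays, a 30.9-fold difference (log2 4.95 ± 0.25, adjusted p = 2.53e-06). *Eif4b* read 6.52 on array 1 and 7.53 on array 3 (log2 2.77 ± 0.53, adjusted p = 0.00198).

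The scaffold eIF4G bridges the cap-binding protein and eIF3, and it is encoded by several genes. *Eif4g1* read 14.4, 10.2 and 18.6 on the neuron arrays with its highest probe set (log2 3.81 ± 0.35, adjusted p = 3.05e-05). *Eif4g3* reached 4.25 ± 0.34 and *Eif4g2*, a relative that lacks the site for eIF4E, 4.24 ± 0.52, with all 3 *Eif4g2* probe sets past the threshold. The cap-binding protein itself, *Eif4e*, was measured by 3 probe sets that did not move together. The probe set 1398799_at read 5.78, 2.94 and 6.30 on the neuron arrays and 0.932 to 1.15 on the uninjured ones (log2 2.25 ± 0.37, adjusted p = 0.000869). The other *Eif4e* probe sets read 0.685 to 0.840 on the neuron arrays and did not pass (log2 -0.44 ± 0.20 and -0.39 ± 0.21, adjusted p = 0.0825 and 0.142). The cap-binding relatives *Eif4e2* (0.94 ± 0.51) and *Eif4e3* (0.50 ± 0.27 and -0.16 ± 0.49) did not pass either. *Eif4enif1*, which carries eIF4E into the nucleus, passed at 1.69 ± 0.23. *Eif4a3*, a helicase of the exon junction complex that shares the family name, read 12.4, 7.45 and 13.4 on the neuron arrays (log2 3.43 ± 0.57, adjusted p = 0.000931).

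Factors that select the start codon and carry the initiator transfer RNA were higher in neurons almost throughout. Of 7 probe sets for eIF1 and eIF1A, 6 passed as higher and none as lower. *Eif1ax*, an eIF1A gene, read 25.0, 16.2 and 27.8 on the neuron arrays with an uninjured low of 0.696 (log2 4.49 ± 0.57, adjusted p = 0.000205). *Eif1b* differed by 3.32 ± 0.52, and the 4 probe sets of *Eif1a* by 1.08 to 2.25. *Eif1ad*, named for an eIF1A domain, did not pass (0.56 ± 0.42). All 4 probe sets of eIF2, the carrier of the initiator transfer RNA, passed. Its alpha subunit gene *Eif2s1*, whose product is the target of the stress kinases, read 14.3, 6.01 and 15.7 on the neuron arrays (log2 3.47 ± 0.97, adjusted p = 0.0128). The uninjured arrays read 0.265 to 2.14 for *Eif2s1*, and the groups did not overlap. The beta subunit gene *Eif2s2* differed by 3.26 ± 0.79, and the gamma subunit genes *Eif2s3* and *Eif2s3y* by 1.14 ± 0.30 and 4.44 ± 0.53. *Eif2s3y* is the form on the Y chromosome, and it read 22.4, 14.2 and 31.8 on the neuron arrays.

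The exchange factor eIF2B, which reloads eIF2 with nucleotide, was higher in neurons by a smaller amount. Of its 6 probe sets 5 passed, for 4 of its 5 subunit genes. *Eif2b1*, the alpha subunit, read 6.18, 3.94 and 7.13 on the neuron arrays (log2 2.48 ± 0.31, adjusted p = 0.000192). The probe sets of *Eif2b2*, *Eif2b4* and *Eif2b5* differed by 1.01 to 2.05. *Eif2b3*, the gamma subunit, read 1.38, 1.13 and 1.49 and did not pass (0.41 ± 0.31, adjusted p = 0.280). The alternative initiator carriers *Eif2a* and *Eif2d* passed at 1.46 ± 0.46 and 1.23 ± 0.28.

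The subunits of eIF3 ranged from no detectable difference to 33.2-fold. Of 17 probe sets 11 passed as higher in neurons, 1 as lower and 5 did not pass. *Eif3c*, a core subunit, read 33.4, 26.3 and 41.4 on the neuron arrays and 0.876 to 1.74 on the uninjured ones (log2 5.05 ± 0.36, adjusted p = 8.23e-06). *Eif3a*, the largest scaffold subunit, read 10.2, 11.0 and 9.26 with 1 probe set (log2 3.34 ± 0.48, adjusted p = 0.000394). It read 1.12, 0.810 and 1.20 with the other, which did not pass (0.04 ± 0.31). Both probe sets of *Eif3l* (4.16 ± 0.39 and 3.27 ± 0.29) and *Eif3j* (3.11 ± 0.47 and 2.73 ± 0.49), 2 further subunits, passed. *Eif3i*, *Eif3d* and *Eif3b* followed at 2.08 ± 0.52, 1.85 ± 0.29 and 1.75 ± 0.26. The subunits *Eif3f* and *Eif3h* (0.85 ± 0.87 and -0.11 ± 0.62) did not pass. The first *Eif3h* probe set read 2.18, 1.17 and 2.28 on the neuron arrays, within an uninjured range of 0.317 to 2.65. *Eif3f* read 1.16, 0.675 and 1.21 on the neuron arrays within an uninjured range of 0.332 to 2.32 (log2 -0.03 ± 0.79, adjusted p = 0.979). *Eif3m* read 5.63, 2.87 and 7.41, above every uninjured array, but did not pass (2.30 ± 1.06, adjusted p = 0.0883).

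The factors that act at subunit joining and after it were also higher in neurons. *Eif5b*, the GTPase that joins the large subunit, read 10.2, 5.37 and 11.8 on the neuron arrays with its highest probe set (log2 3.11 ± 0.37, adjusted p = 0.000124). *Eif6*, which keeps free large subunits from pairing early, read 3.93, 2.08 and 4.07 (log2 1.69 ± 0.42, adjusted p = 0.00755). *Eif5a*, whose hypusine-bearing product helps ribosomes past difficult stretches, read 12.5, 7.22 and 13.6 (log2 3.42 ± 0.35, adjusted p = 5.75e-05). Its relative *Eif5a2* passed with 1 of its 2 probe sets (1.63 ± 0.33). The release factor gene *Etf1*, which ends synthesis at a stop codon, read 1.56, 1.04 and 1.63 on the neuron arrays, beside an uninjured range of 0.503 to 1.46. It did not pass (log2 0.47 ± 0.49, adjusted p = 0.439).

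Among elongation factors *Eef2* had the largest difference of all members and the eEF1 subunits were divided. *Eef2*, which encodes the translocase, read 44.1, 35.8 and 52.7 on the neuron arrays and 0.840 to 1.24 on the uninjured ones. This was a 43.6-fold difference (probe set 1370003_at, log2 5.45 ± 0.28, adjusted p = 2.62e-06). Of 8 probe sets of eEF1, 3 passed as higher, 1 as lower and 4 did not pass. *Eef1a1*, the GTPase that delivers charged transfer RNA in most cells, read 21.3, 8.29 and 20.8 with probe set 1370109_s_at (log2 3.95 ± 0.96, adjusted p = 0.00681). Its other probe set read 7.23, 3.11 and 8.68, above every uninjured array, but did not pass (log2 2.54 ± 1.29, adjusted p = 0.117). It passed without uninjured array 1 (adjusted p = 0.00437), which read 0.0883. Near-identical processed copies of *Eef1a1* are common in mammalian genomes, so its probe sets may read more than 1 locus. *Eef1a2*, the form of muscle and neurons, read 5.44, 4.36 and 6.89 with 1 probe set (log2 2.45 ± 0.33, adjusted p = 0.000287) and 0.785, 0.740 and 0.495 with the other (-0.60 ± 0.28, adjusted p = 0.0938). The exchange subunits differed among themselves. *Eef1d* passed at 2.98 ± 0.48, whereas *Eef1b2* read 0.576, 0.354 and 0.629 on the neuron arrays and did not pass (-0.99 ± 0.71, adjusted p = 0.254). Without uninjured array 1 *Eef1b2* passed as lower in neurons (adjusted p = 0.0248). *Eef1e1*, a small protein of the tRNA synthetase complex named for its likeness to eEF1, read 5.54, 4.91 and 5.90 (log2 2.44 ± 0.50, adjusted p = 0.00294).

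Enzymes that modify elongation factors made up 7 probe sets, of which 4 passed as higher in neurons, 1 as lower and 2 did not pass. *Eef2k*, the kinase that phosphorylates eEF2 and slows elongation, passed as higher with 2 of its 4 probe sets (1.66 ± 0.31 and 1.21 ± 0.19). The methyltransferase genes *Eef1akmt1* (1.15 ± 0.35) and *Eef1akmt2* (1.31 ± 0.30) passed, and *Eef1akmt4* did not (-0.38 ± 0.27). In all, 10 of the 54 genes had no call in either direction between neurons and uninjured axons: *Eif1ad*, *Eif2b3*, *Eif3f*, *Eif3h*, *Eif3m*, *Eif4e2*, *Eif4e3*, *Eef1b2*, *Eef1akmt4* and *Etf1*.

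**Figure D2:**
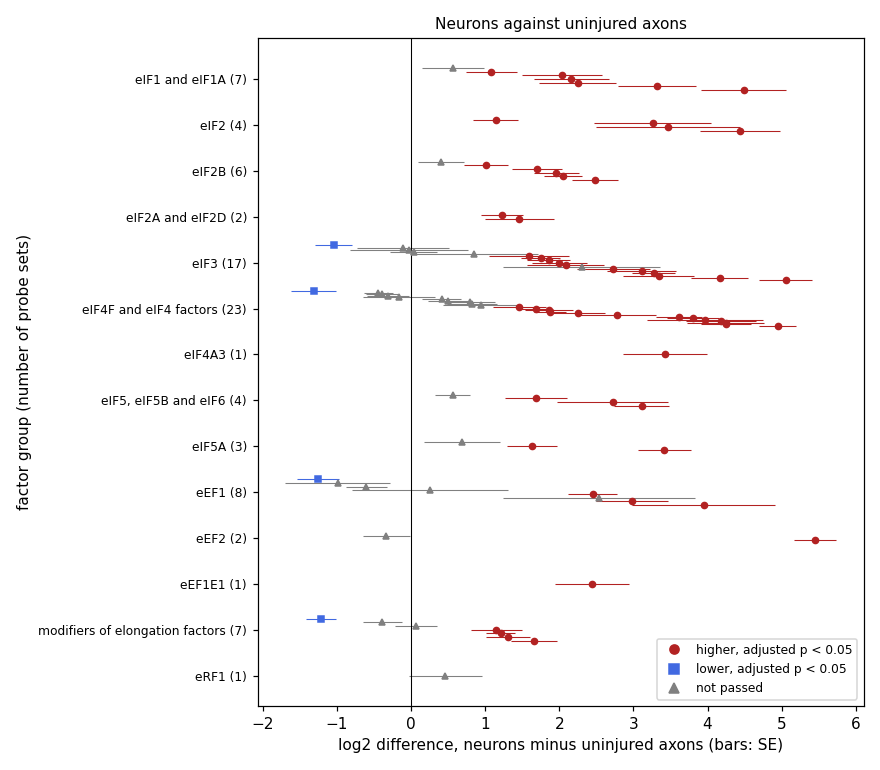
Log2 difference, neurons minus uninjured axons, of each translation factor probe set (points, bars show the standard error) by factor group, marked by whether it passed an adjusted p under 0.05. All 14 groups except the release factor have at least 1 probe set that passed to the right of 0, and the 4 that passed to the left lie between -1.31 and -1.04.

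All 4 members that passed as lower in neurons belong to genes with another probe set at or above the reference. *Eif4g1* probe set 1395702_at read 0.375, 0.537 and 0.325 on the neuron arrays (log2 -1.31 ± 0.31, adjusted p = 0.00552), beside the 3.81 of the gene's highest probe set. *Eef1g* probe set 1394744_at read 0.379, 0.584 and 0.336 (-1.25 ± 0.28, adjusted p = 0.00473), and the other read 1.45, 0.829 and 1.42. *Eef2k* probe set 1394253_at differed by -1.21 ± 0.21 and *Eif3k* probe set 1381339_at by -1.04 ± 0.25. For *Eif3k* the other probe set read 3.56, 1.72 and 4.51 and passed as higher (1.60 ± 0.54, adjusted p = 0.0297), a call lost without neuron array 1 or 3 (adjusted p = 0.0695 and 0.0674). These 4 values lie within the range of 41 chemosensory receptor genes, a class taken to be largely silent in cortex, of which 30 passed as lower in neurons with a median log2 of -0.98 and a lowest value of -1.61. The count of 4 became 8 in a 2-group fit against the 6 measured uninjured arrays and 9 with no error assigned to the reference, while the share of all probe sets lower in neurons became 40.4% and 41.7%.

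Probe sets of the same gene differed widely for the translation factors. Of 23 genes with several probe sets, 18 had probe sets over 1 apart on the log2 scale, and 8 had probe sets on opposite sides of 0 with at least 1 call. The widest gap was in *Eef2*, whose second probe set, 1396549_at, read 0.716, 1.15 and 0.612 on the neuron arrays (log2 -0.33 ± 0.32). *Eif4g1* followed with a span of 5.12 on the log2 scale over 4 probe sets and *Eif4g3* with 4.56 over 2. *Eif4a2*, *Eif3a*, *Eif4h*, *Eif3c* and *Eef1a2* had spans of 3.05 to 3.30, and *Eef2k*, *Eif4e*, *Eif3k*, *Eif5b* and *Eif4g2* of 2.38 to 2.87. The spans of *Eif4b*, *Eef1g*, *Eef1a1*, *Eif1a* and *Eif2b5* ran from 1.97 for *Eif4b* down to 1.04 for *Eif2b5*. When the probe sets of a gene were averaged first, 41 of the 54 genes passed as higher in neurons and 0 as lower. Of all genes 36.9% and 23% did.

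Other genes of translation control were counted from a fixed list. Of 64 listed genes 57 had probe sets, and 63 of their 96 probe sets passed as higher in neurons and 7 as lower, with a median log2 of 1.37. Of all probe sets 28.4% and 27.5% did. The share higher in neurons was close to that of the members (56 of 86), so it was not particular to translation factors. *Ddx3x*, a helicase that helps structured messages start, read 42.5, 43.8 and 40.0 on the neuron arrays with 1 probe set (log2 5.39, adjusted p = 0.000511). Its other probe set differed by 0.69. *Ncbp2*, a subunit of the nuclear cap-binding complex, differed by 4.92, 2.24 and 1.89 over its probe sets. *Atf4*, the transcription factor made when eIF2 is phosphorylated, differed by 4.62. *Mtor*, the kinase that couples growth signals to initiation, differed by 2.48 (adjusted p = 0.000717). All 4 eIF2 kinases were measured, and *Eif2ak1*, *Eif2ak3* and *Eif2ak4* passed as higher with 0.92 to 1.69, whereas *Eif2ak2* did not (0.15, adjusted p = 0.627). Of the inhibitors that hold eIF4E, *Eif4ebp2* passed at 1.89 and *Eif4ebp1* (0.28) and *Eif4ebp3* (-0.09) did not.

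Markers of other cells and control transcripts moved with the neuron arrays too. Of 14 astrocyte probe sets 10 passed as higher in neurons (median log2 3.41) and 1 as lower, and the median ratio of this list was 9.35 to 11.3 on the neuron arrays and 0.862 to 0.967 on the regenerating arrays. Neuronal markers did the same with 13 of 17 probe sets (median 3.04), against 28.4% of all probe sets. In contrast, 8 of 9 microglial and 7 of 11 fibroblast and vascular probe sets passed as lower and 0 as higher (median -1.02 and -0.69). Of all probe sets 27.5% passed as lower. The largely silent chemosensory receptor genes did so with 30 of 41 probe sets (median -0.98), so these values do not show such messages in axons. Oligodendrocyte markers passed as higher with 6 of 12 probe sets and as lower with 1, and those of dividing cells with 2 and 1 of 6. The hybridisation controls, foreign transcripts spiked in at a set dose, had a median ratio on the 3 neuron arrays of 0.276, 0.910 and 0.157, and the probe set for the end of beta-actin read 71.2, 38.4 and 80.1. On array 2, where the hybridisation controls stood near the reference, *Eef2* read 35.8 and *Eif4h* 25.9, and the median member ratio was the lowest of the 3 arrays at 2.57. The part of glial messages and of the amount of labelled RNA in the higher translation factor values was not tested.

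Regenerating axons differed from uninjured axons in far fewer members, and the differences lay on the low side. Of the 86 probe sets 1 passed as lower, *Eef2*, and 0 as higher, against 0.335% and 0.00966% of all probe sets. At an unadjusted p under 0.05, 18 members were lower and 2 higher (limma), against 6.89% and 3.97% of all probe sets. At least 2-fold lower were 19 members (22.1%, against 4.21% of all), and 17 had every regenerating array below every uninjured array (19.8%, against 10.9% of all). The median log2 difference of the members, regenerating minus uninjured, was -0.07, and that of all probe sets 0.03. Most members thus stood near the reference while a group of 14 probe sets for 13 genes lay at a log2 difference of -2 or below. No member read the table's lowest ratio, 0.01, but *Eef1b2* (0.0103) and *Eif3f* (0.0107) came close to it on regenerating array 3. Of all probe sets 12 read 0.01 on regenerating array 2 and 9 on array 3. In a 2-group fit against the 6 measured uninjured arrays 23 members passed as lower and 3 as higher, against 9.42% and 7.4% of all probe sets. With no error assigned to the reference 26 and 6 did, against 11.9% and 11.4%.

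Among elongation factors *Eef2* passed and the eEF1 subunits had the lowest values. *Eef2* read 0.200, 0.176 and 0.150 on the 3 regenerating arrays and 0.840 to 1.24 on the uninjured arrays, so the groups lay well apart. It was 5.74-fold lower (log2 -2.52 ± 0.26, adjusted p = 0.0146). This call was narrowly lost without regenerating array 2 or 3 (adjusted p = 0.0504 and 0.0513). *Eef1a1* read 0.177, 0.0443 and 0.024 with probe set 1370109_s_at, below an uninjured range of 0.244 to 2.28 (log2 -4.13 ± 1.15, adjusted p = 0.171). With probe set 1388110_at it read 0.181, 0.0193 and 0.0157, and here the uninjured range of 0.0883 to 1.83 overlapped (-4.72 ± 1.58, adjusted p = 0.264). The further eEF1 subunits *Eef1b2* and *Eef1g* had the same profile. *Eef1b2* read 0.286, 0.0173 and 0.0103 (-4.75 ± 1.49, adjusted p = 0.227), with an uninjured range of 0.246 to 1.17. *Eef1g* read 0.308, 0.02 and 0.0147 (-4.48 ± 1.61, adjusted p = 0.311), with an uninjured range of 0.114 to 1.31. Regenerating array 1 thus read above arrays 2 and 3 for each of these subunits, and so it did for 11 of the 14 probe sets. Without regenerating array 1, *Eef1b2*, *Eef1g*, *Eif3f* and *Eif3k* passed as well (adjusted p = 0.00454, 0.0451, 0.00696 and 0.00109), 5 members in all. The share of all probe sets that passed as lower then rose too, from 0.335% to 1.49%.

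The other elongation factors read from below the uninjured range to near the reference. *Eef1d*, an exchange subunit, read 0.486, 0.387 and 0.343, below the uninjured range of 0.570 to 1.17 (-1.32 ± 0.42, adjusted p = 0.242). *Eef1e1* read 0.168, 0.183 and 0.183 (-2.49 ± 0.49, adjusted p = 0.0717), against 0.352 to 1.06 on the uninjured arrays. The tissue-restricted *Eef1a2* stood near the reference with both probe sets, at 0.838, 1.04 and 0.820 with the first and 1.05 to 1.31 with the second. The other probe sets of *Eef2* and *Eef1g* read 0.899 to 1.18 and 1.07 to 1.17 on the regenerating arrays.

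Among initiation factors the low values lay in eIF3, with single probe sets of *Eif4a2* and *Eif2s2*. *Eif3f* had the lowest difference of all members, at 0.175, 0.0144 and 0.0107 on the regenerating arrays (log2 -5.06 ± 1.37, adjusted p = 0.162). Its uninjured arrays read 0.332 to 2.32, and the groups did not overlap. *Eif3k* read 0.237, 0.0431 and 0.051 (-3.64 ± 0.80, adjusted p = 0.103), and *Eif3h* 0.231, 0.0283 and 0.0978 (-3.54 ± 1.13, adjusted p = 0.238). *Eif3i*, *Eif3m* and *Eif3l* lay at -2.29 ± 0.42, -2.28 ± 1.03 and -2.03 ± 0.41, with adjusted p-values of 0.0594, 0.463 and 0.0815. The other probe sets of *Eif3k* (0.16 ± 0.25), *Eif3h* (-0.37 ± 0.41) and *Eif3l* (0.36 ± 0.31) stood near the reference. Other subunits did not share these values. *Eif3a* read 0.584 to 1.85 and *Eif3b* 1.16 to 1.51 on the regenerating arrays, and *Eif3c* 0.517 to 0.925 with the probe set that was highest in neurons. *Eif4a2* read 0.266, 0.0698 and 0.0417 (-3.44 ± 1.02, adjusted p = 0.201), whereas its close paralogue *Eif4a1* read 1.16, 1.36 and 0.953 (0.19 ± 0.30). The other *Eif4a2* probe set read 0.706, 0.729 and 1.21 (-0.23 ± 0.35), so the gene's probe sets disagree, and no difference between the paralogues was tested. *Eif2s2* read 0.227, 0.151 and 0.158 (-2.51 ± 0.78, adjusted p = 0.225), beside 0.430, 0.513 and 0.432 for *Eif2s1* and 1.04, 0.974 and 1.15 for *Eif2s3*. Another 5 probe sets were at least 2-fold lower without reaching -2, those of *Eif3j* (-1.50 ± 0.40), *Eef1d*, *Eif2s1* (-1.13 ± 0.87), *Eif4g2* (-1.03 ± 0.59) and *Eif1b* (-1.03 ± 0.51).

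**Figure D3:**
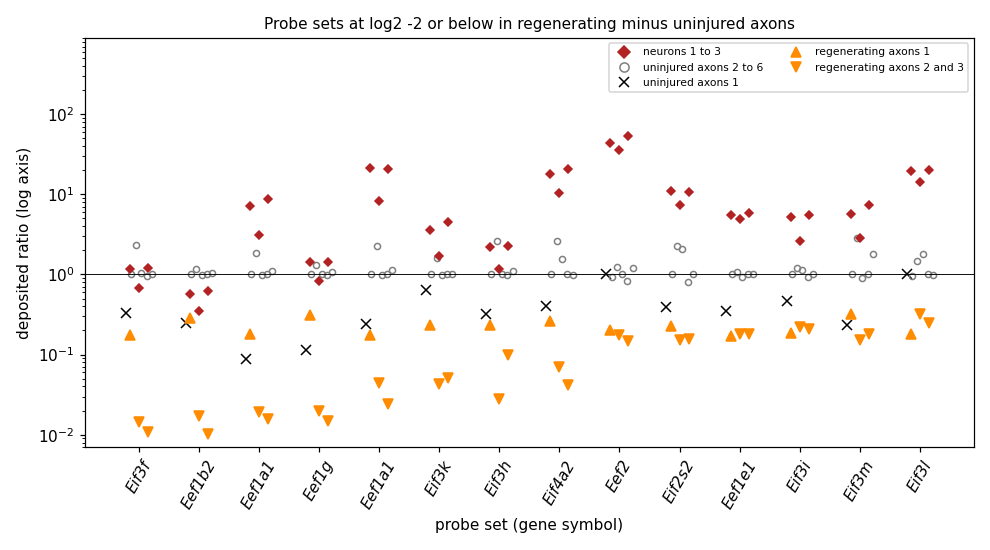
Deposited ratio (log axis) of the 14 probe sets at a log2 difference of -2 or below in regenerating minus uninjured axons, for neurons 1 to 3 (diamonds), regenerating axons 1 (upward triangle) and 2 and 3 (downward triangles), uninjured axons 1 (cross) and 2 to 6 (circles). The regenerating arrays reach down to 0.0103, and the cross of uninjured array 1 lies below 0.5 for 11 of the 14 probe sets.

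Uninjured array 1 was low for the same probe sets. It read below 0.5 for 11 members, and all 11 are among the 14 that were lowest in regenerating axons. Over all probe sets 1.68% read below 0.5 on this array. Its values ran from 0.0883 for *Eef1a1* and 0.114 for *Eef1g* to 0.469 for *Eif3i*, while *Eif3k* (0.634), *Eef2* (1) and *Eif3l* (1) were the exceptions among the 14. Uninjured array 3 read above 1 for all 14, up to 2.82 for *Eif3m*, whereas arrays 4 to 6 stayed between 0.797 and 2.06. The ratios of arrays 1 to 3 are relative to their own median, so a low array 1 and a high array 3 are measured against each other. The standard errors of the 14 include this spread and the spread between the regenerating arrays. The within-set standard deviation of the uninjured log2 ratios had a median of 0.277 over the members and 0.207 over all probe sets. Without uninjured array 1, *Eef1e1* passed as lower (adjusted p = 0.00148) and 3 members passed in all, and 2 did without uninjured array 3 or 4. Of all probe sets 0.947% passed as lower without array 1, 0.467% without array 3 and 0.615% without array 4. What array 1 and the regenerating arrays share was not tested.

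Several of the low messages belong to a class known for a shared start. Messenger RNAs of ribosomal proteins and of many elongation factors begin with a C and a run of pyrimidines, through which mTOR controls their translation. The bases around each annotated start were therefore examined for a C followed by C or T, at least 6 letters in all, lying within the 20 bases before and the 20 bases after the start. This run was chosen after the values were seen, and a match is a description of the letters, not a mapped start. Promoter sequences from RefSeq (GRCr8) were used for 50 of the 54 genes, with 53 annotated starts. The run was found on the coding strand at 23 of the 53 starts (43.4%), against 27.7% of 33469 promoters in the table. On the opposite strand it was found at 18.9% and 31.2%. Of 34 probe sets of genes with the run, 11 lay at -2 or below in regenerating axons, and of 43 probe sets of genes without it, 2 did. At -1 or below the counts were 12 of 34 and 5 of 43. The 2 without a run at -2 or below were *Eif2s2* and *Eif3l*, and *Eif3h* is not in the promoter table. The median log2 differences of these classes were close, at -0.19 and -0.06, since many genes with the run stood near the reference.

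The starts of 7 genes with a run are shown because they belong to the members lowest in regenerating axons. *Eif4a1* and *Eif4e*, which were not low, are shown for comparison. Each window is 20 bases before and 20 bases after the annotated start, 5′ to 3′ on the gene's strand. The longest pyrimidine run is in capitals, and the windows of *Eif3f* and *Eef1b2* also hold a shorter run that meets the rule. In GRCr8 they lie at chr1:172369042-172369081 (plus strand, *Eif3f*), chr9:72074071-72074110 (plus, *Eef1b2*), chr8:88225050-88225089 (minus, *Eef1a1*), chr1:215289795-215289834 (plus, *Eef1g*), chr1:93397468-93397507 (minus, *Eif3k*), chr7:9189219-9189258 (minus, *Eef2*), chr11:91275304-91275343 (minus, *Eif4a2*), chr10:54888583-54888622 (minus, *Eif4a1*) and chr2:229740733-229740772 (plus, *Eif4e*).
Eif3f: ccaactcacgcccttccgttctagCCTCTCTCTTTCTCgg
Eef1b2: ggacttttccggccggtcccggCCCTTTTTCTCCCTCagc
Eef1a1: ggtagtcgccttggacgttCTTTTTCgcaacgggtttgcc
Eef1g: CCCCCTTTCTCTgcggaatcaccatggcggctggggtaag
Eif3k: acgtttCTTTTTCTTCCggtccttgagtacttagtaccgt
Eef2: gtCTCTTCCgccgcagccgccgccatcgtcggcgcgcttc
Eif4a2: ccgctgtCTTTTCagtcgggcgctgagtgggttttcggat
Eif4a1: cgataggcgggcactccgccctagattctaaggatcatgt
Eif4e: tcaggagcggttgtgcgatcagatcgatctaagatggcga
Within these windows the longest runs are 14 bases long in *Eif3f*, 15 in *Eef1b2*, 12 in *Eef1g* and 11 in *Eif3k*, and 6 or 7 in *Eef1a1*, *Eef2* and *Eif4a2*. The distances from the annotated start vary, from 20 bases before it in *Eef1g* to within the 20 bases after it in *Eif3f* and *Eef1b2*. *Eef1a2* also holds a run, of 6 bases, and was not low in regenerating axons. Longer runs of genes that were not low are not shown either. They include those of *Eif2s3* and *Eif2s3y*, of 12 bases each (log2 0.08 and -0.22), and *Eif4h*, of 8 bases (-0.52 and 0.45). *Eif2s2*, which was low without a run (-2.51), is not shown. The windows shown are thus a selection.

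**Figure D4:**
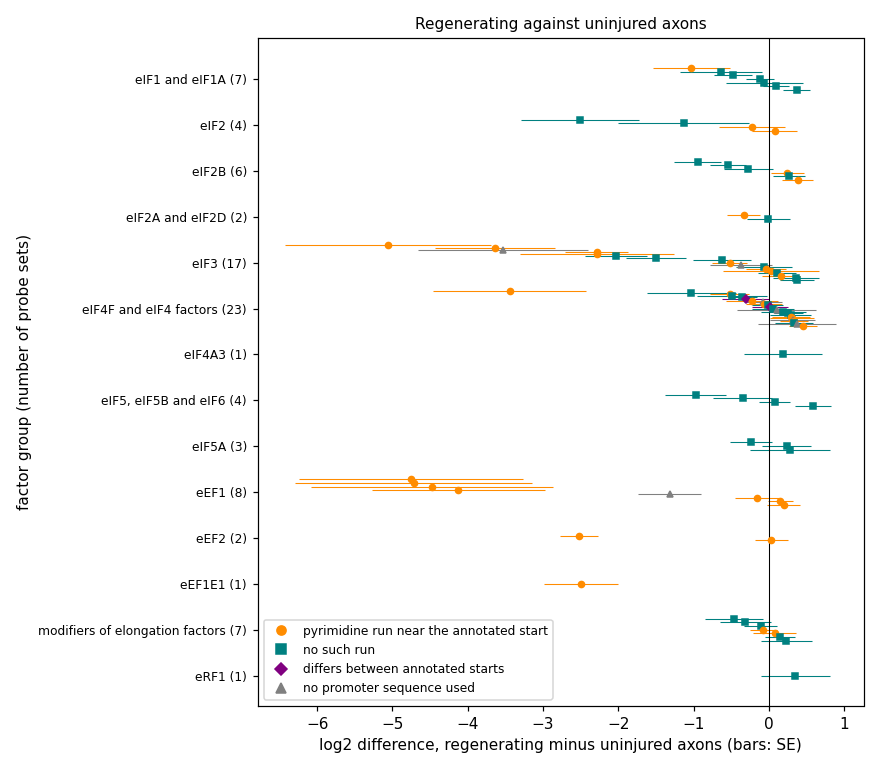
Log2 difference, regenerating minus uninjured axons, of each translation factor probe set (points, bars show the standard error) by factor group, marked by whether a pyrimidine run lies near the annotated start. The points below -4 are *Eif3f* and probe sets of *Eef1a1*, *Eef1b2* and *Eef1g*, all with a run, and most points of either kind lie near 0.

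Most of the remaining initiation factors read near the reference in regenerating axons. The 23 eIF4 probe sets had a median log2 difference of 0.05, those of eIF2B -0.01 and those of eIF5A 0.24. *Eif4e* read 0.864 to 1.60 over its 3 probe sets on the regenerating arrays, *Eif4g1* 0.854 to 1.49 over its 4, and *Eif5a* 1.01, 0.669 and 0.899. *Eif6* read 0.754, 0.361 and 0.488 (log2 -0.97 ± 0.41, adjusted p = 0.409). The highest difference was that of *Eif5b* probe set 1396191_at, at 1.38, 1.67 and 1.47 (0.59 ± 0.24, adjusted p = 0.382), followed by *Eif4h* probe set 1397675_at (0.45 ± 0.19, adjusted p = 0.412). All 3 arrays lay above every uninjured array for 7 members (8.14%), a share near the 10.3% of all probe sets. *Etf1* read 1.39, 1.37 and 1.09, within the uninjured range.

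Among the other genes of translation control 2 of 96 probe sets passed as lower in regenerating axons and 0 as higher, against 0.335% and 0.00966% of all probe sets. They were *Tsc2*, an inhibitor of mTOR signalling, at 0.362, 0.265 and 0.230 (log2 -1.83, adjusted p = 0.0449), and 1 of 3 probe sets of *Akt1*, a kinase upstream of it (-1.76, adjusted p = 0.0495). The lowest of the list was *Rps6*, a ribosomal protein, at 0.398, 0.0903 and 0.0918 (-2.75, adjusted p = 0.246), beside an uninjured range of 0.264 to 1.16. Neuronal markers had a median log2 of -0.67 over 17 probe sets, a range of -4.48 to 0.37, and 0 calls. The lowest was a *Stmn2* probe set at 0.173, 0.0247 and 0.0209, beside an uninjured range of 0.194 to 1.58. The other *Stmn2* probe set lay at -3.24. Probe sets of *Map2* (-4.01, the other -0.66) and *Gap43* (-3.10, the other 0.20) were low too, so such falls were not particular to translation factors. Their median ratio was 0.545, 0.635 and 0.523 on the regenerating arrays. The hybridisation controls read 1.14, 1.44 and 1.57 there, highest on the arrays where the eEF1 subunits were lowest. The part of either in the low values was not tested.

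Regenerating axons were set against neurons directly, which assumes that both were divided by the same reference and uses arrays already shown above. Of the 86 members 67 were lower in regenerating axons (77.9%, 52 of 54 genes; limma, adjusted p under 0.05), against 35.2% of all probe sets, and 7 were higher (8.14%), against 37.3%. The median log2 difference of the members was -2.09, and that of all probe sets 0.08. The spread of the uninjured axons does not enter here, and the errors were accordingly smaller. *Eef1a1* differed by -8.07 ± 0.69 (adjusted p = 2.12e-05) and *Eef2* by -7.97 ± 0.20 (adjusted p = 1.47e-07). *Eif4a2* followed at -7.41 ± 0.61 (adjusted p = 1.78e-05) and *Eif3l* at -6.20 ± 0.25 (adjusted p = 5.12e-07). *Eif3f* and *Eef1b2*, which were not higher in neurons than in uninjured axons, also passed, at -5.03 ± 0.93 and -3.77 ± 1.07. For *Eef1b2* the call rested on regenerating arrays 2 and 3 together (adjusted p = 0.0548 and 0.0501 without either). All probe sets of eIF1 and eIF1A, eIF2, eIF2B, *Eif2a* and *Eif2d* passed as lower, and so did 14 of 17 for eIF3 and 16 of 23 for eIF4 factors. Among these the call of *Eif2b5* probe set 1376145_at (-0.63 ± 0.23, adjusted p = 0.0385) was lost without any 1 array other than neuron array 2, with adjusted p up to 0.116, and with the replicate block (adjusted p = 0.0556). The calls of *Eif2b3* (-0.68 ± 0.21) and *Eif1ad* (-1.04 ± 0.31) were lost too, *Eif2b3* without neuron array 1 or 3 or regenerating array 2 or 3, and *Eif1ad* without neuron array 1 or regenerating array 1 or 2. An *Eif4e3* probe set (-0.58, adjusted p = 0.0142) was lost without regenerating array 3. The 7 that passed as higher were the probe sets of *Eif4g1*, *Eef1g*, *Eef2k* and *Eif3k* that were low in neurons, 2 of *Eif4e* (0.73 ± 0.19 and 0.70 ± 0.16) and 1 of *Eef1a2* (0.80 ± 0.21). On gene means 1 gene was higher, *Eef1akmt4* (log2 0.62, adjusted p = 0.0491), against 31.3% of all genes. *Eef1akmt4* is not among the genes of these 7. The release factor gene *Etf1* and *Eif3a* probe set 1379485_at did not pass in any of the 3 comparisons, at -0.11 ± 0.22 and -0.07 ± 0.19 here.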

How the data were processed

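Polyadenylated RNA of 13 samples was measured on rat expression arrays. The authors deposited linear ratios for 31099 probe sets, and the submitters' processing notes name RMA with no version. Row medians of the deposited ratios showed the scaling of the uninjured arrays, and the denominator of the other arrays was assumed. Scanner files were not used here. Symbols came from the array's annotation and were checked by gene identifier against GRCr8, with none of the 54 members changed.

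Log2 ratios were fitted per probe set with limma 3.58.1 in R 4.3.3 (lmFit and eBayes, two-sided), over all 31042 probe sets that are not controls, with Benjamini-Hochberg adjustment over all of them and a threshold of 0.05. Against uninjured axons the spread came from the group's 3 arrays and from the uninjured arrays within their ratio sets, with the error of 1 array assigned to the reference. Regenerating axons and neurons were compared in a 2-group fit. A ratio allows no filter on low signal, so all members were tested. The scripts were tested on simulated data. The members, gene lists and tests were chosen with earlier results of these data known.

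Named probe sets were those with the largest difference in each direction per factor group among those past the threshold, the 3 highest and 3 lowest in regenerating axons, 12 fixed genes, and genes whose probe sets disagree. Others are given by their difference or range, and those at a log2 difference of -2 or below in regenerating axons were chosen after their values were seen.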

Additional observations from a re-analysis of the deposited data

Results flagged for a closer look

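Among the named translation factor probe sets, 58 were checked for an uninjured array that stands apart from the other 5, by the gap to its neighbour as a share of the range (Dixon's criterion for 6 arrays). Of these 11 had such an array. The chance rate of about 1 in 20 holds for independent values, and these are scaled to a median of 1 in sets of 3, so the 11 are given as a description. Uninjured array 1 was the low array for *Eef1a1* with both probe sets (0.244 and 0.0883), *Eef1b2* (0.246), *Eef1g* (0.114), *Eef1e1* (0.352) and the second *Eef2* probe set (0.826). Uninjured array 6 was low for *Eif2s3y* (0.421) and *Eif2a* (0.713) and high for *Eif1a* (2.76). Uninjured array 4 was high for *Eif3c* (1.74) and *Eif4b* (2.82). Since arrays 1 to 3 and arrays 4 to 6 are each scaled to their own median, these gaps are within those sets and say nothing of the sets' levels.

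Signal was also present in probe sets outside the members because their annotation gives several symbols. The probe set shared by *Eif3el1* and *Eif3e*, an eIF3 subunit, differed by a log2 of 2.76 between neurons and uninjured axons and by -2.79 ± 0.55 between regenerating and uninjured axons (limma, adjusted p = 0.0739), with ratios of 0.197, 0.130 and 0.118 on the regenerating arrays. The 3 probe sets shared by *Eif5-ps1* and *Eif5*, whose product activates the GTPase of eIF2, differed by 2.11, 2.72 and 3.44 between neurons and uninjured axons. The probe set shared by *Eif2s3y* and *Eif2s3* differed by 1.16.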

How the results depend on the processing

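The count of members higher in neurons stayed between 55 and 67 of 86 over the alternatives run per probe set. The share of all probe sets ran from 25.8% to 38.4%. The median log2 of the members stayed between 1.62 and 1.96. In the main fit, leaving out an uninjured array could not change this median, because those arrays enter only the error. The count lower in neurons went from 4 to 8 in a 2-group fit against the 6 measured uninjured arrays (40.4% of all probe sets). It went to 9 with no error for the reference (41.7%) and to 0 on gene means (23% of all genes). Regenerating against uninjured axons depended most on the error model. The 1 lower and 0 higher became 23 and 3 in the 2-group fit (9.42% and 7.4% of all probe sets) and 26 and 6 with no error for the reference (11.9% and 11.4%). The lower count was 2 on gene means (0.689% of all genes) and 2 with p-values adjusted over probe sets with 1 symbol (0.552% of those). It was 3 with ratios below 0.1 set to 0.1 (0.519% of all probe sets). Leaving out 1 array at a time gave 0 to 5 lower. The count was 0 without regenerating array 2 or 3 (0.0193% and 0% of all probe sets) and 5 without regenerating array 1 (1.49%). It was 3 without uninjured array 1 (0.947%) and 2 without uninjured array 3 or 4 (0.467% and 0.615%). The median of -0.07 became -0.10 in the 2-group fit and -0.30 on gene means, and lay between -0.096 and -0.074 with 1 array left out. On gene means 1 gene, *Eef1akmt4*, was higher in regenerating axons than in neurons (31.3% of all genes were), and it is not among the 7 probe sets. Same-numbered arrays did not deviate together (r from -0.31 to 0.13 over probe sets), so the label numbers were not taken to pair arrays. With the replicate block 61 members were higher and 6 lower in neurons than in uninjured axons (33.3% and 34.3% of all probe sets). Then 5 were lower in regenerating than in uninjured axons (1.93% of all) with a median of -0.12. Against neurons 67 were lower in regenerating axons (34.6% of all). No named probe set changed direction where either value passed the threshold, while values near 0, such as *Eif3f* in neurons against uninjured axons (-0.03, and 0.24 without neuron array 2), did. Signal over background is unknown for ratios, which limits what low values show.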
